A study of Mus musculus with 7 samples.

Results

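The 468 regions described here are the promoters of long intergenic noncoding RNA (lincRNA) genes of the mouse autosomes. A region was the 1 kb on either side of the transcription start site (TSS) of a gene typed as lincRNA in GENCODE release M1 on mm9, with the TSS at least 5 kb from every TSS of a protein-coding gene. Of 1232 autosomal lincRNA genes, 764 lay nearer than that and were left out. The 468 regions are part of 22650 autosomal promoters of lincRNA and protein-coding genes that were measured in the same way.

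5-formylcytosine (5fC) was tagged with biotin by an aldehyde-reactive probe, captured on streptavidin beads and sequenced in J1 cells, a mouse ES cell line of the 129S4/SvJae background. The 3 conditions had 2 libraries each: wild type (WT), with no siRNA, a non-targeting siRNA control, and TDG KD, an siRNA pool against Tdg. Wild-type cells grew on irradiated feeder fibroblasts and the transfected cells without feeders, so WT and siRNA control differ in feeders and transfection together, and all siRNA cells share both. The libraries are called WT 1 and WT 2, control 1 and control 2, and KD 1 and KD 2, numbers that name a library and do not pair it with another. In the titles control 2 and KD 2 carry the prefix EAR and the others BHAM. No expression was analysed here, so the depth of the knockdown and the transcription of these genes are not given.

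5fC is made when TET enzymes oxidise methylated cytosine by way of 5-hydroxymethylcytosine, and TDG (thymine DNA glycosylase) excises it so that an unmodified cytosine can be put back. Many promoters of housekeeping and developmental genes hold a CpG island (CGI), a stretch dense in CpG that is mostly free of methylation. lincRNAs are transcribed by RNA polymerase II from their own promoters, which hold islands less often than those of protein-coding genes, and several of them act in imprinting, nuclear organisation or cell fate.

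A CGI was found in 126 of the 468 windows (26.9%), against 11833 of 21418 protein-coding promoters (55.2%). It was defined as 500 bp within the window with at least 55% GC and a ratio of observed to expected CpG of at least 0.65. The median window held 73.5 CpGs in lincRNA promoters with a CGI and 27 in those without, against 95 and 21 in protein-coding promoters. The TSS of 136 regions lay inside a protein-coding gene, on the opposite strand in 126 of them. The median distance to the nearest protein-coding TSS was 27.3 kb. As a check of the type, 194 of the 468 symbols matched a gene in RefSeq (assembly GRCm38.p6, used for names only), of which 172 were classed as long noncoding RNA and 7, Nlrc5 among them, as protein coding.

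The DNA at 7 of the start sites shows how different the sequence of these regions can be. Each stretch runs 5′ to 3′ on the strand of the lincRNA, from 250 bases before the TSS to the 50 bases that start at it, and capitals mark every CpG. Miat and Gm17433 were enriched in all 6 libraries with and without an island, Snhg7 and Airn in all but KD 1, Dlx1as in both TDG KD and no control library, and Gpr137b-ps and Sox2ot in none.

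Miat: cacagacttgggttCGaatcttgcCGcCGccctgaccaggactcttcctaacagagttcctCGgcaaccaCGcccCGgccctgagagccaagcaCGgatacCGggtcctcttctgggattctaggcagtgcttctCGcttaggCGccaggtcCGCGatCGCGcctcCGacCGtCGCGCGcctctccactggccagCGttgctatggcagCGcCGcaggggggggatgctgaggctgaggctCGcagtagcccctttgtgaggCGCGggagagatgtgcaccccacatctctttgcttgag
Gm17433: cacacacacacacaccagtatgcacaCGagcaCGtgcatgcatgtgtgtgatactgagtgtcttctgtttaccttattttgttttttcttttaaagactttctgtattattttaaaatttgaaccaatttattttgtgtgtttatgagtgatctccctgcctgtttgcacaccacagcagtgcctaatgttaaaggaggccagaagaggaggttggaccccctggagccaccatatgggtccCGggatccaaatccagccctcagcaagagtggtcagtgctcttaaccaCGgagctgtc
Snhg7: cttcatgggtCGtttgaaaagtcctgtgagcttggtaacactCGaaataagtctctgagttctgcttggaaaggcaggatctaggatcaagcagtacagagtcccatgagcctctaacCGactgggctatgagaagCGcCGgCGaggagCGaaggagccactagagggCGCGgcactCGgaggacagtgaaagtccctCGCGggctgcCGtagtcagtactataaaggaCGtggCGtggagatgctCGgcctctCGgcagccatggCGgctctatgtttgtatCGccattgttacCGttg
Airn: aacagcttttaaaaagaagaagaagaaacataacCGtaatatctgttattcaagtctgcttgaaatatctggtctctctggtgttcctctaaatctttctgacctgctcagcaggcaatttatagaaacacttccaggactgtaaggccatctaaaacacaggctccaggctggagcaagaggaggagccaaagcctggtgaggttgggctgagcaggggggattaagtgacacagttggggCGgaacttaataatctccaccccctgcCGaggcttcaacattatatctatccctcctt
Dlx1as: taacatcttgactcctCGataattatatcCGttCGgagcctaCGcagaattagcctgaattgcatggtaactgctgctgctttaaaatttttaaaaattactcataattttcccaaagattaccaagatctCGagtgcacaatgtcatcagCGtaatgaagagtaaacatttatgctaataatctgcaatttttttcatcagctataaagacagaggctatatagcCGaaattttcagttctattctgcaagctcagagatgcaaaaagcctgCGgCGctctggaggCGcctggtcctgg
Gpr137b-ps: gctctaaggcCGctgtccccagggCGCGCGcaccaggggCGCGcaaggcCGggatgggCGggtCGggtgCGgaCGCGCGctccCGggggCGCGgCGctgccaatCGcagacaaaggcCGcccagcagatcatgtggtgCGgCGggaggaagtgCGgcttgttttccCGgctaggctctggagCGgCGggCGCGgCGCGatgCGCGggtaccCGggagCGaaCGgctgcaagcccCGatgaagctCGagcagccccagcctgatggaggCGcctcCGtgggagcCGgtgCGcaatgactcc
Sox2ot: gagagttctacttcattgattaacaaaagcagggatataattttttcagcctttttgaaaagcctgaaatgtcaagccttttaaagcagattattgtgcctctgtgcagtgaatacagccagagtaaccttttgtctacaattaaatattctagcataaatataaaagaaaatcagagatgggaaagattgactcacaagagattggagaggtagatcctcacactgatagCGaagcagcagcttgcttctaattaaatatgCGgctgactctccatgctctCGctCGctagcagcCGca

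In mm9 the stretches lie at chr5:112657919-112658218 on the minus strand (Miat), chr11:119012715-119013014 on the plus strand (Gm17433), chr2:26495715-26496014 on the minus strand (Snhg7) and chr17:12933927-12934226 on the plus strand (Airn). The other 3 are chr2:71375899-71376198, minus (Dlx1as), chr13:12742515-12742814, minus (Gpr137b-ps), and chr3:34003110-34003409, plus (Sox2ot). They hold 25 CpGs in Miat, 4 in Gm17433, 20 in Snhg7, 3 in Airn, 10 in Dlx1as, 40 in Gpr137b-ps and 5 in Sox2ot. The stretch with the most CpGs thus belongs to a region with no enriched sequence, and one of those with the fewest, Gm17433, to a region enriched throughout.

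The measurements are domains that the authors called in each library against 1 input library, each stretch of the genome being enriched, background or unconfident. The labels give that input as wild type, so the siRNA libraries had no input of their own condition. The enriched share of a region is the percentage of its 2 kb in enriched domains, and a region was called enriched in a library at 50% or more. The excess is the surplus of pulldown over input reads in a 100 bp bin, averaged over the window, minus the mean of the library, per M (mega) uniquely placed reads. The pulldowns held from 20.4 M such reads in KD 1, the shallowest, to 45.9 M in WT 1, the deepest. What part depth has in the values of these libraries was not tested. The domains differ in grain: the enriched domain over a lincRNA TSS had a median width of 2.2 kb in WT 1 and 38.8 to 334.2 kb in the other libraries, so the value of a 2 kb window is usually the average of a far wider stretch. KD 1 stands apart, because 40.6% of the lincRNA windows there was unconfident, against at most 0.641% in any other library. 12 regions overlap the window of another, and in control 2 the 210 TSS in enriched domains fell into 196 different domains.

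lincRNA promoters carried 5fC-enriched sequence in every library. The mean enriched share over the 468 regions was 45.5% in WT 1 and 52.1% in WT 2, 47.6% in control 1 and 45.1% in control 2, and 12.9% in KD 1 and 50.3% in KD 2. Apart from KD 1 the libraries thus lay within a narrow range. The mean excess was 0.0191 and 0.00947 reads per bin per M reads in WT 1 and WT 2, 0.00664 and 0.00340 in the controls, and 0.00218 and 0.0107 in KD 1 and KD 2, in each case above the library mean of 0. In WT 2 most regions were all or nothing, as 204 had no enriched sequence and 218 were enriched over the whole window. In WT 1, with its narrower domains, the corresponding numbers were 111 and 64, so most regions there were enriched in part.

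Called enriched in both libraries of a condition were 176 regions in WT (37.6%), beside 39.7% of all 22650 promoters, and 174 in siRNA control (37.2%), beside 34.4%. In TDG KD the count was 54 (11.5%), beside 15% of all promoters. These shares lie near the background in each condition. 43 regions (9.19%) were called in all 6 libraries, beside 11% of all promoters, and 133 (28.4%) in the 5 libraries other than KD 1, beside 27%. Of those 133, KD 1 had 43 as enriched, 85 as unconfident over at least 50% of the window and 5 as neither. At the other end 139 regions (29.7%) were called in no library, beside 28.4% of all promoters, and 87 (18.6%) had no enriched sequence in any library, beside 16.6%.

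The first question was whether lincRNA promoters differ in 5fC from protein-coding promoters of the same island class. Without a CGI, the mean enriched share at lincRNA promoters was 41.5% in WT 1, 48.9% in WT 2, 47.0% in control 1, 45.5% in control 2, 12.8% in KD 1 and 48.2% in KD 2. At protein-coding promoters without a CGI the same libraries gave 36.4%, 38.1%, 38.1%, 36.2%, 11.8% and 39.3%. The lincRNA value was the higher one in 6 of 6 libraries, by 7.37 ± 3.62 percentage points (SD, n = 6). An exact two-sided sign-flip permutation test over the libraries gave p = 0.03125, the smallest that 6 libraries allow, and 0.125 after Benjamini-Hochberg adjustment over 8 tests, which does not pass 0.05. The excess was higher by 0.00255 ± 0.00147, again in 6 of 6 libraries and with the same exact p of 0.03125 and adjusted p of 0.125. The libraries span 3 conditions and share 1 input, so they are not independent draws of one population.

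The protein-coding set without a CGI includes 1447 olfactory, vomeronasal and trace amine receptor genes, which stand in large clusters. Their promoters had an enriched share of only 0.899% to 11.1% across the 6 libraries. With these genes left out, a choice made after the values were seen, the difference was 2.38 ± 2.11 percentage points (SD, n = 6), above 0 in 5 of 6 libraries, with an exact sign-flip p of 0.09375 and 0.117 after adjustment over the 25 comparisons added in this way. Most of the difference thus went with 1 group of protein-coding genes. With only the lincRNA promoters outside protein-coding genes, and the receptor genes kept, it was 3.93 ± 3.31 points, above 0 in 5 of 6 libraries (exact p = 0.0625, adjusted 0.0977). On the excess these settings gave 0.000652 and 0.00156 in place of 0.00255.

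**Figure D1:**
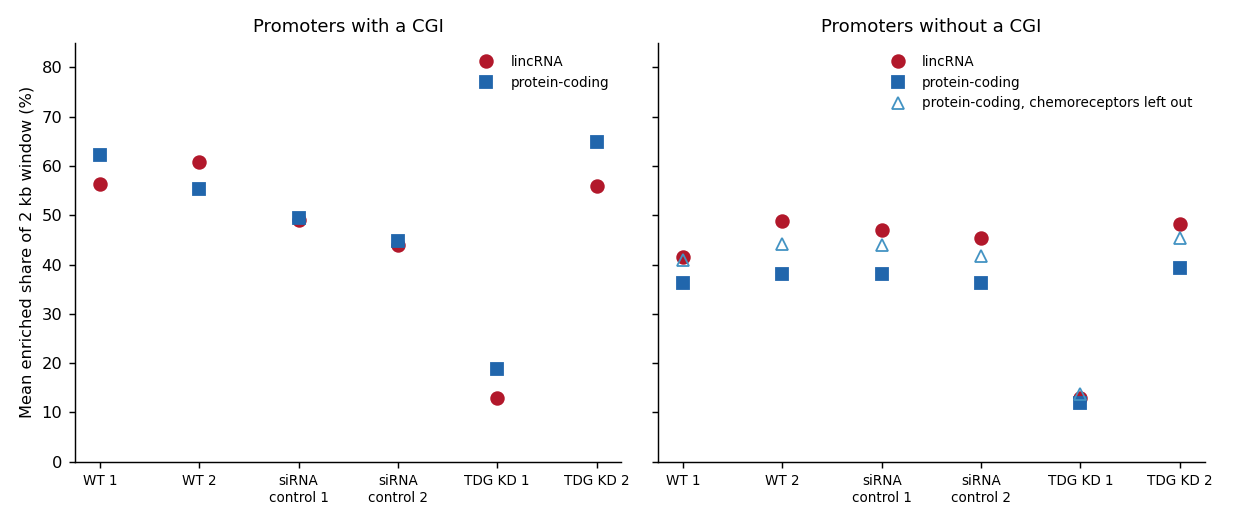
Mean percentage of the 2 kb window in enriched domains (vertical axis) in each of the 6 pulldown libraries, for promoters with a CGI (left) and without (right). Circles are lincRNA promoters, squares protein-coding promoters and open triangles protein-coding promoters without the chemoreceptor genes. Without a CGI the circles lie above the squares in all 6 libraries, and the triangles lie between them in 5, while TDG KD 1 is low in every set.

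With a CGI the order was not the same in all libraries. lincRNA promoters had 56.4% in WT 1, 60.9% in WT 2, 49.1% in control 1, 44.1% in control 2, 13.0% in KD 1 and 55.8% in KD 2. Protein-coding promoters with a CGI had 62.2%, 55.3%, 49.5%, 44.9%, 18.7% and 64.8%. Only WT 2 had the higher share at lincRNA promoters. The difference was -2.70 ± 5.19 percentage points (SD, n = 6), with an exact sign-flip p of 0.156 and an adjusted p of 0.156. On the excess it was -0.00173 ± 0.00189, above 0 in 1 of 6 libraries (exact p = 0.0625, adjusted 0.143). The share difference depended on which regions entered: it was -0.459 for members that share no window, -0.904 with islands of 200 bp, -1.23 without chromosome 8, -1.29 by distance to gene starts, -5.48 outside protein-coding genes and -6.22 at 10 kb or more, and -1.45 without KD 2 and -4.34 without WT 2.

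Among lincRNA promoters themselves, a CGI went with a higher enriched share in 5 of 6 libraries. The gap was 14.8 percentage points in WT 1 and 12.0 in WT 2, 2.10 in control 1 and -1.41 in control 2, and 0.152 in KD 1 and 7.60 in KD 2. The gap was thus widest in wild type and near 0 in 3 of the 4 siRNA libraries. Its mean was 5.87 ± 6.64 (SD, n = 6; exact sign-flip p = 0.09375, adjusted 0.143). It was 12.5 with islands of 200 bp (exact p = 0.03125, adjusted 0.0833) and 2.98 for regions at least 10 kb from a protein-coding TSS (exact p = 0.375). Without chromosome 8 it was 6.93 (exact p = 0.03125, adjusted 0.0625). For regions that share no window it was 8.45 (exact p = 0.03125, adjusted 0.0833). A sign-flip p of 0.03125 requires the same sign in all 6 libraries, so control 2 was not below 0 in these settings.

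The number of CpGs in the window separated the regions, though not in the same order in all libraries. In WT 2 the enriched share was 16.4% in the 49 regions with 0 to 14 CpGs, 47.7% in the 148 regions with 15 to 29, 58.2% in the 165 with 30 to 59, 61.7% in the 83 with 60 to 99 and 78.2% in the 23 with 100 or more. WT 1 rose in the same order. In the siRNA libraries the class with 60 to 99 CpGs lay below that with 30 to 59, at 47.1% against 56.4% in control 1, 43.1% against 53.5% in control 2, 10.6% against 14.9% in KD 1 and 58.2% against 58.9% in KD 2. At 15 to 29 CpGs lincRNA and protein-coding promoters differed by 0.0055 ± 1.35 percentage points (SD, n = 6) and at 30 to 59 by -0.335 ± 2.90, with 3 of 6 libraries on either side in both classes (exact p = 0.969 and 0.781). At 60 to 99 CpGs the difference was -3.37 ± 4.65, and at 0 to 14 it was 3.18 ± 3.75, each with the same sign in 5 of 6 libraries. The 23 regions with 100 or more CpGs had a higher share than their protein-coding counterparts in 6 of 6 libraries, by 12.7 ± 10.6 (exact sign-flip p = 0.03125, adjusted 0.0651 over the 25 added comparisons). The difference was only 0.0341 in WT 1 and 1.56 in KD 1, and 9.59 to 24.7 in the other libraries.

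The GC content of the window gave the widest separation. lincRNA promoters with a GC content of 50% or more (169 regions) had an enriched share of 70.4% in WT 1, 79.4% in WT 2, 75.5% in control 1, 66.4% in control 2, 22.7% in KD 1 and 79.3% in KD 2. Those under 42% GC (63 regions) had 10.3%, 15.8%, 14.7%, 14.6%, 1.59% and 9.62% in the same libraries. The mean of the GC-rich class was the higher one in 6 of 6 libraries, by 54.5 ± 17.4 percentage points (SD, n = 6; exact sign-flip p = 0.03125, adjusted 0.0651). Single regions of the 2 classes did overlap. Gpr137b-ps, with 58.2% GC, had a share of 0% in all 6 libraries, and Gm17362, with 38.95% GC, had 100% in control 2. Gm17362 lies on chromosome 8, whose regions stood higher in each siRNA library. Across the 468 regions the Spearman correlation of the excess with GC content was 0.421 to 0.673 in the 6 libraries, against 0.135 to 0.387 with the CpG count and -0.162 to -0.0864 with the distance to a protein-coding TSS. The regions of a library share its depth and its wide domains, and these correlations describe the libraries without a test. Pulldown libraries can differ from their input in base composition, and what part that has in these values was not tested.

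Within classes of GC content lincRNA promoters had the higher enriched share in most libraries. The difference from protein-coding promoters was 8.29 ± 4.56 percentage points (SD, n = 6) under 42% GC, 3.90 ± 4.42 from 42 to 46%, 8.06 ± 3.76 from 46 to 50% and 7.52 ± 6.80 at 50% or more. It was above 0 in 6, 5, 6 and 5 of 6 libraries, and without the chemoreceptor genes it was 7.09, 3.44, 8.08 and 7.54. The exact sign-flip p was 0.03125, 0.0625, 0.03125 and 0.09375, and none passed 0.05 after adjustment (0.0651 to 0.117). Comparing within classes of GC content and within classes of CpG count therefore gave different answers. The promoters were not matched for GC content or CpG count within a class.

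**Figure D2:**
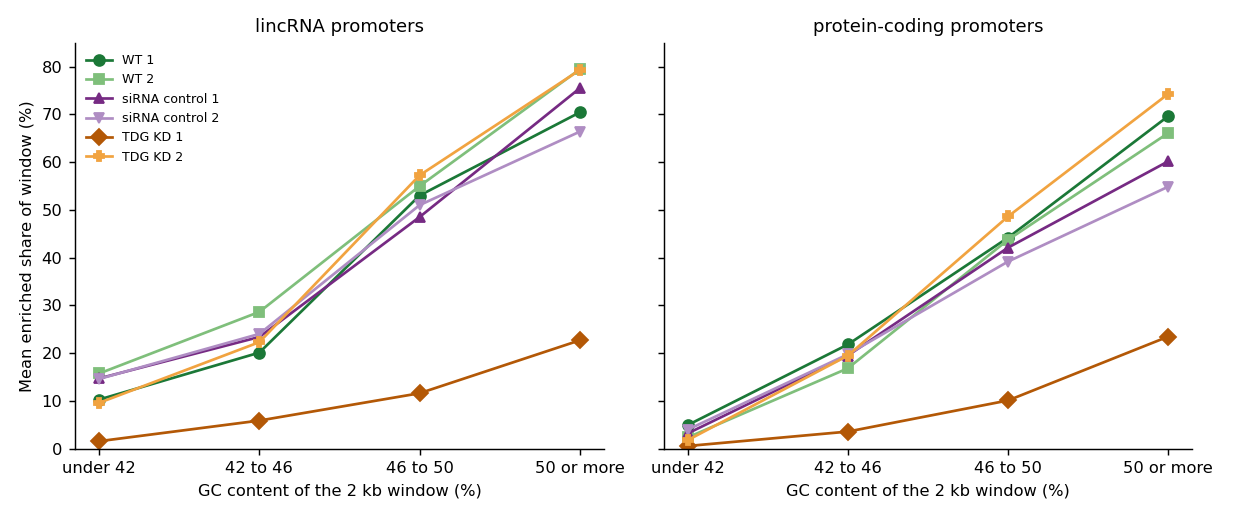
Mean percentage of the 2 kb window in enriched domains (vertical axis) against the GC content of the window in 4 classes (horizontal axis), for lincRNA promoters (left) and protein-coding promoters (right), with 1 line for each pulldown library. The share rises from class to class in all 6 libraries in both panels, and TDG KD 1 stays below 24%.

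The profile around the TSS answered whether the signal is centred on the promoter. In WT 1, 73.0% of lincRNA promoters with a CGI were enriched at the TSS itself, against 33.3% at the positions 5 kb on either side. In WT 2 the values were 62.7% and 51.6%, in control 1 50.0% and 46.8%, in control 2 43.7% and 44.0%, in KD 1 13.5% and 13.5%, and in KD 2 58.7% and 43.7%. A peak was thus seen in both wild-type libraries and KD 2, with its maximum within 100 bp of the TSS, while control 2 and KD 1 were flat. The peak in WT 1 reached 73.8% and was 1.0 kb wide at mid-height. Protein-coding promoters with a CGI peaked at 84.0% in the same library, also with a width of 1.0 kb.

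lincRNA promoters without a CGI had almost no peak. The TSS exceeded the flanks by 4.82 percentage points in WT 1 (44.2% against 39.3%) and by -0.877 to 2.78 in the other libraries. At protein-coding promoters without a CGI the rise in WT 1 was 14.8 points, and the rise at lincRNA promoters was the smaller one in 6 of 6 libraries (lincRNA minus protein-coding -3.29 ± 3.36, SD, n = 6, exact sign-flip p = 0.03125, adjusted 0.0651). The flanks of these lincRNA promoters were in turn more enriched than those of protein-coding promoters, by 9.98 ± 3.80 points in 6 of 6 libraries (same p and adjusted p), and by 5.28 ± 2.55, again in 6 of 6, without the chemoreceptor genes. The mean difference between these sets was thus no smaller 5 kb away (9.98) than in the window around the TSS (7.37). Over all 468 regions the TSS exceeded the flanks by 4.27 ± 5.53 points, in 4 of 6 libraries (exact p = 0.125, adjusted 0.143). Without WT 1, the library with the narrowest domains, the difference was 2.29 points, and on the excess 0.000871 in place of 0.00243.

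**Figure D3:**
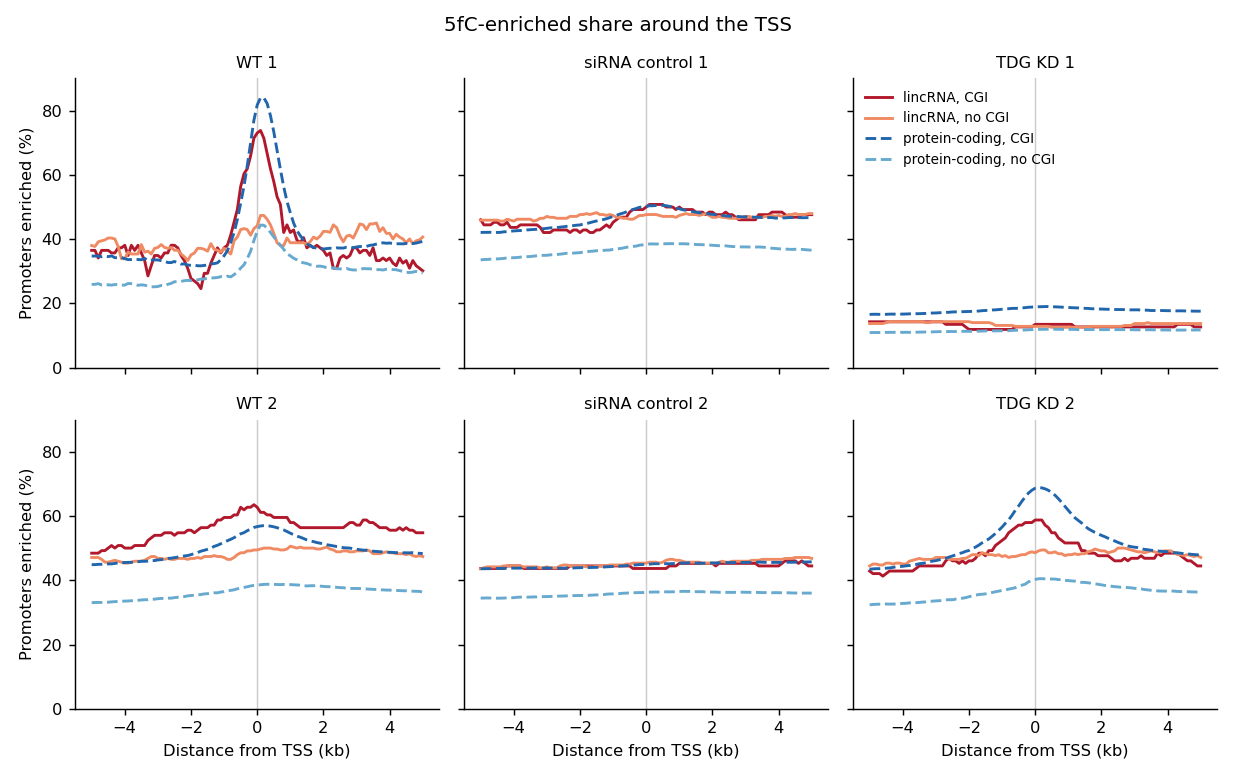
Percentage of promoters whose base at a given distance from the TSS lies in an enriched domain (vertical axis), from 5 kb upstream to 5 kb downstream in the direction of transcription (horizontal axis, kb), for each pulldown library. Solid lines are lincRNA promoters and dashed lines protein-coding promoters, with and without a CGI. In WT 1 the lincRNA promoters with a CGI reach 73.8%, and in siRNA control 2 and TDG KD 1 all lines are flat.

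Position in the genome also separated the regions. Among those without a CGI, the 122 that start inside a protein-coding gene had a higher enriched share than the 220 that start outside in 6 of 6 libraries, by 9.65 ± 2.75 percentage points (SD, n = 6; exact sign-flip p = 0.03125, adjusted 0.0651). In WT 1 the shares were 48.1% inside and 37.9% outside, and in control 1, the library with the widest gap, 56.3% and 41.9%. By distance to a protein-coding TSS the share in WT 2 was 56.0% for 102 regions at 5 to 10 kb, 54.9% for 214 at 10 to 50 kb, 50.4% for 132 at 50 to 200 kb and 14.3% for the 20 beyond. In each of the 6 libraries those 20 most remote promoters had the lowest share, 4.18% to 20.0%. Just inside the limit of 5 kb, the 22 regions at 5 to 6 kb had 36.4% to 67.6%, and just outside it the 26 lincRNA promoters at 4 to 5 kb had 7.69% to 50.3%.

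The 23 regions on chromosome 8 had an enriched share of 46.9% in WT 1 and 63.4% in WT 2 but 85.2% in control 1, 91.3% in control 2, 26.1% in KD 1 and 78.3% in KD 2. Elsewhere the shares were 45.5% and 51.5% in wild type and 45.6%, 42.7%, 12.2% and 48.8% in the same siRNA libraries. Chromosome 8 thus stood higher in each siRNA library and in WT 2, and hardly at all in WT 1. The 8 planned within-library differences, the condition differences over all regions and the counts called in both libraries were recomputed without it. The 25 added comparisons, the correlations and the named regions were not.

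Known lincRNA genes with a described role gave 15 of the 468 regions. They are listed by role, and 7 of the 15 were called in WT 1, WT 2 and KD 2, 5 in control 1, 4 in control 2 and 2 in KD 1. Among all members 46.4%, 53%, 51.1%, 48.3%, 44.9% and 13.0% were called in the same libraries, beside 54.8%, 48.7%, 55.5%, 45%, 41.2% and 15.8% of all promoters. The median excess of the 15 was 0.0235, -0.000955, -0.00128, -0.00291, -0.000376 and 0.00695 in WT 1, WT 2, control 1, control 2, KD 1 and KD 2, against 0.0184, 0.0109, 0.00287, 0.000952, 0.000691 and 0.00985 over all 468. No member carried a symbol of the list of lincRNAs linked to p53.

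Miat, an RNA retained in the nucleus and known from neurons and heart, was the sole member of the nuclear list and was called in all 6 libraries. Its promoter has a CGI with 88 CpGs in the window and an enriched share of 65.0% in WT 1 and 100% in each other library. The excess was 0.0324 and 0.0290 in WT 1 and WT 2, 0.0186 and 0.0120 in the controls and 0.0152 and 0.0260 in KD 1 and KD 2. All 6 values were above the mean of the members, and wild type lay above the other libraries.

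The imprinted noncoding RNAs were divided. Airn, which is transcribed from within Igf2r on the opposite strand and silences it on the paternal allele, has a CGI and a share of 51.8% in WT 1, 100% in WT 2, 91.8% and 100% in the controls and 100% in KD 2, while its window was wholly unconfident in KD 1. Its excess was positive in every library, from 0.00778 in control 2 to 0.0276 in WT 1. Mirg, a host of microRNAs in the Dlk1-Dio3 cluster, was enriched over 88.3% of the window in WT 1 and 0% in WT 2, 100% in both controls, 18.3% in KD 1 and 100% in KD 2. Its wild-type libraries were opposite in sign of excess, 0.0472 and -0.0102. Meg3, the maternally expressed RNA of the same cluster, was called in no library, with shares of 17.3%, 2.30%, 0%, 27.7%, 0% and 0%, although its excess was above 0 in 5 of 6, from 0.00531 to 0.00740.

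Of the 4 regions on the neural and developmental list, 2 were called in KD 2, 1 each in WT 2 and KD 1, and 0 in WT 1 and the controls. Of all promoters 55.5% were called in KD 2, 48.7% in WT 2, 15.8% in KD 1, 54.8% in WT 1 and 45% and 41.2% in the controls. Sox2ot, whose transcript spans the pluripotency gene Sox2, had no enriched sequence in any library and an excess of -0.0100 to -0.00440. Rmst, a partner of SOX2 in neural fate, was enriched over 30% of the window in WT 1 and nowhere else. The same shares held for 1700020I14Rik, a conserved lincRNA also known as Cyrano and the sole member of the list of ES cell lincRNAs. C130071C03Rik, a host of a brain microRNA, was called in KD 2 alone, at 100%, after 45.0% in WT 1 and 0% in the other 4. Dlx1as, antisense to the homeobox gene Dlx1, had shares of 7.45% and 100% in WT 1 and WT 2, 0% in both controls and 100% in both TDG KD libraries.

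The hosts of small RNAs covered the whole range. Snhg7 was enriched over 100% of the window in all libraries except KD 1, where it was unconfident, with an excess of 0.0521 and 0.0315 in wild type, 0.0166 and 0.0123 in the controls and 0.0134 and 0.0343 in TDG KD. Dleu2, the host of miR-15a and miR-16-1, has 166 CpGs and was enriched over at least 99.95% of the window in WT 1, WT 2, control 1 and KD 2 but 0% in control 2 and KD 1. The controls of Dleu2 were thus opposite, 0.0452 and -0.00354 in excess. Pvt1, the neighbour of Myc, was called in WT 1 (77.3%) and WT 2 (72.8%) and in no siRNA library. Snhg4 and Snhg12 were called in 1 wild-type library each, at 50.0% in WT 1 and 100% in WT 2, and Snhg5 in none.

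**Figure D4:**
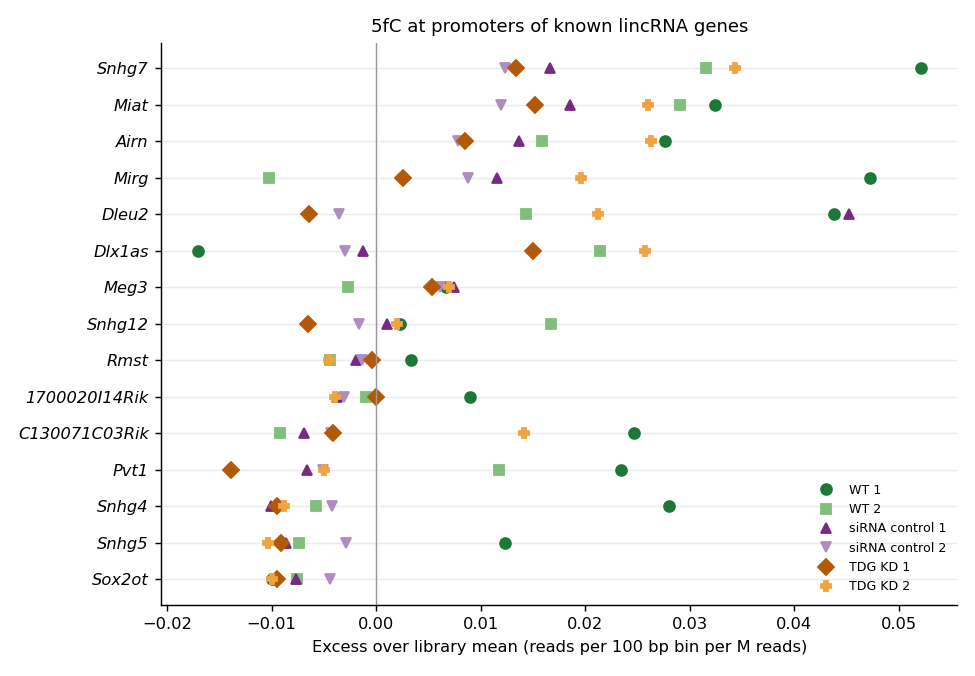
Excess over the library mean in reads per 100 bp bin per M reads (horizontal axis) at the promoters of 15 known lincRNA genes, ordered by their median percentile among the 468 regions, with 1 symbol for each pulldown library. Snhg7, Miat and Airn are above 0 in all 6 libraries, and Sox2ot is below 0 in all. For all the other genes except Pvt1, the libraries of at least 1 condition lie on both sides of 0.

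The 10 regions with the highest median percentile of excess among the members, out of those called in all 6 libraries, were Nlrc5, 4732419C18Rik, 9330175E14Rik, 2810410L24Rik, Gm17433, Gm16896, Gm17274, F630040L22Rik, Gm17481 and Gm11732. 2810410L24Rik and Gm17274 had an island and the other 8 did not, beside 30 of the 43 regions called in all 6 libraries and 342 of all 468 without one. Gm17433 starts inside Tbc1d16 and F630040L22Rik inside Bsn, both on the opposite strand, and both had a share of 100% in every library. The excess of Gm17433 was 0.0607 and 0.0319 in wild type, 0.0272 and 0.0152 in the controls and 0.0212 and 0.0363 in TDG KD. Nlrc5, 4732419C18Rik and 9330175E14Rik, which head the list, lie on chromosome 8. That chromosome holds 23 of the 468 regions and stood higher in each of the 4 siRNA libraries. Nlrc5 and 9330175E14Rik had identical values in these libraries, where 1 domain of 165.3 to 1467.3 kb covers both, so they count as 1 observation there. All 10 were chosen by these values, which are given as a description.

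Some lincRNA promoters with an island had no enriched sequence. Of the 126 lincRNA promoters with a CGI, 10 had an enriched share of 0% in all 6 libraries (7.94%), against 77 of the 342 without a CGI (22.5%) and 3.77% of protein-coding promoters with a CGI. The 5 with the most CpGs were Gpr137b-ps (116 CpGs), 4933427G23Rik (72), Gm4349 (71), 9330111N05Rik (70) and Gm15283 (62). At Gpr137b-ps, annotated by its symbol as a pseudogene, the excess was below 0 in every library, from -0.0151 in WT 1 to -0.000259 in control 2.

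The second question was what TDG KD changed. The mean enriched share was 46.3% ± 1.8 (SD, n = 2) in siRNA control and 31.6% ± 26.4 in TDG KD, and the KD libraries lay on either side of the controls. The difference was -14.8 percentage points by an exact two-sided permutation test with p = 1, where 2 libraries against 2 cannot go below 0.333. Within the BHAM libraries KD 1 was 34.7 points below control 1, and within the EAR libraries KD 2 was 5.19 points above control 2. With the unconfident sequence counted as enriched the pooled difference was 5.33. On the excess the pooled difference was 0.00140 (exact p = 1), with -0.00446 within BHAM and 0.00726 within EAR. No direction of change at lincRNA promoters can thus be given from these 4 libraries.

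The island classes were also compared within each prefix, with 1 library on each side. In the EAR libraries the share at lincRNA promoters with a CGI was 44.1% in control 2 and 55.8% in KD 2, and without a CGI 45.5% and 48.2%. In the BHAM libraries it was 49.1% in control 1 and 13.0% in KD 1 with a CGI, and 47.0% and 12.8% without, differences of -36.1 and -34.2 points. Protein-coding promoters with a CGI had 44.9% in control 2 and 64.8% in KD 2. Called in KD 2 and not in control 2 were 62 lincRNA promoters (13.2%), beside 18.6% of all promoters. With a CGI these were 23 (18.3%), beside 26.0% of protein-coding promoters with a CGI. Without a CGI they were 39 (11.4%), beside 9.39% of protein-coding promoters without one. Called in control 2 and not in KD 2 were 33 (7.05%), beside 4.36%. With a CGI these were 4 (3.17%), beside 3.31% of protein-coding promoters, and without a CGI 29 (8.48%), beside 5.59%. These differences and counts have no replicate check.

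**Figure D5:**
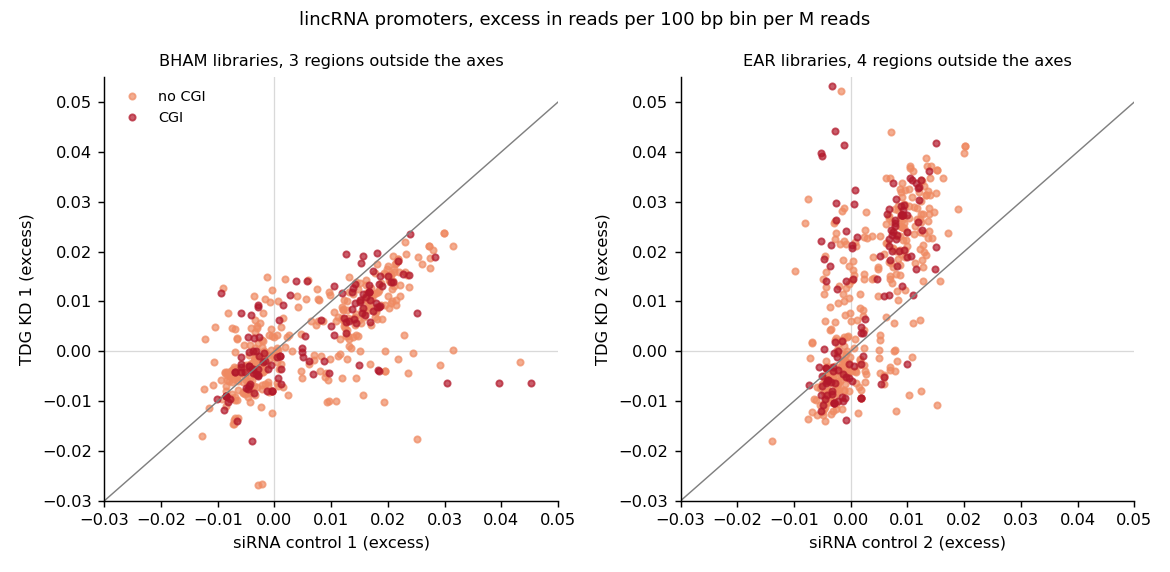
Excess in TDG KD (vertical axis) against siRNA control (horizontal axis), in reads per 100 bp bin per M reads, for the lincRNA promoters, in the BHAM libraries (left) and the EAR libraries (right). Dark points have a CGI, light points do not, and the diagonal marks equal values. Most of the enriched regions lie below the diagonal in the BHAM libraries and over it in the EAR libraries, and the few regions outside the axes are counted in the titles.

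Called in both siRNA controls and without enriched sequence in both TDG KD libraries were 9 regions (1.92%), beside 1.17% of all promoters, and none of the 9 had a CGI. Among protein-coding promoters it was 0.879% with a CGI and 1.55% without. The 5 with the largest difference in excess were Gm11019, Gm17362, Gm8705, 4930519A11Rik and 6530411M01Rik. Of these, Gm17362 and 4930519A11Rik were wholly unconfident in KD 1 and so rest on KD 2. Gm17362 also lies on chromosome 8, whose regions stood higher in each siRNA library. Gm11019 had an excess of 0.00968 and 0.00583 in the controls and -0.0100 and -0.00478 in TDG KD. The opposite pattern was found in 1 region (0.214%), beside 0.671% of all promoters, which was Dlx1as. Its excess was -0.00128 and -0.00295 in the controls and 0.0150 and 0.0257 in TDG KD, while WT 1 (-0.0171) and WT 2 (0.0214) spanned nearly all of that range. The regions of both patterns were chosen by their calls in these libraries. The excess comes from the same domains, so its gap between the conditions is no separate evidence.

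The comparison of siRNA control with WT asked what transfection and the absence of feeders go with, which cannot be told apart here. Over all regions the enriched share was 48.8% ± 4.7 (SD, n = 2) in WT and 46.3% ± 1.8 in siRNA control, a difference of -2.49 points (exact permutation p = 0.667). At lincRNA promoters with a CGI it was 58.6% ± 3.2 in WT and 46.6% ± 3.6 in siRNA control, and the libraries did not overlap (difference -12.0, exact p = 0.333, the smallest possible). Without a CGI it was 45.2% ± 5.2 and 46.2% ± 1.1. Protein-coding promoters with a CGI gave 58.8% ± 4.9 and 47.2% ± 3.3. The excess was lower in siRNA control than in WT by 0.00926 over all regions, without overlap (exact p = 0.333), but by percentile among all promoters it was higher by 2.78 points.

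Called in both wild-type libraries and in no siRNA library were 5 regions (1.07%), beside 1.13% of all promoters, and 0 regions were called in all 4 siRNA libraries and in no wild-type library, beside 0.15% of all promoters. The 5 were Pvt1, Trmt61b, Gm17575, 1700066J03Rik and Gm17603, of which the first 2 have a CGI. They were chosen by their calls in these libraries, and their values are a description. Gm17575 had an excess of 0.0464 and 0.0105 in WT 1 and WT 2, -0.000443 and 0.00177 in the controls and -0.00797 and -0.00948 in TDG KD. Pvt1 and Gm17603 were unconfident over most of the window in KD 1.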

How the data were processed

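5fC pulldown DNA from 6 libraries (2 each of WT, siRNA control and TDG KD) and 1 genomic input of wild-type cells was sequenced. The authors mapped reads from single ends to mm9 using BWA, whose version the submitters' processing notes give as 0.6.1, and retained unique placements. Their domains came from rseg, run for each library on bins of 100 bp with the input as control. Each domain was deposited with a score, its mean surplus of pulldown over input reads in a bin, with no correction for depth. Depth was 20.4 M (KD 1) to 45.9 M (WT 1) uniquely placed reads in the pulldowns and 26.5 M in the input. A second deposited score, which grows with domain width, was not used. Reads were not counted in the regions, so values carry no counting interval and their precision rests on the libraries.

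With Python 3.11.15, NumPy 2.4.6, pandas 2.3.3 and SciPy 1.17.1, windows of 1 kb on either side of each GENCODE M1 TSS were intersected with the domains, and figures were drawn with Matplotlib 3.10.9. Values were weighted by length. The sequence was NCBIM37, the same assembly as mm9. Regions were compared within libraries by exact two-sided sign-flip tests over 6 libraries, and conditions by exact permutation, with Benjamini-Hochberg adjustment over 8 and 4 tests. A further 25 within-library comparisons were chosen after the values were seen and adjusted among themselves. Regions are not replicates. The study describes the replicates as biological.

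The members, the gene lists and the tests were chosen with earlier results of these data known. Named regions were the list members, the 10 of highest median percentile called in all libraries, up to 5 called in 1 condition only, and up to 5 with a CGI and no enriched sequence. The computations were tested on simulated domains and sequences. Alternatives included other windows, call limits, CGI rules and distances, each library left out, each prefix, and no chromosome 8.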

Additional observations from a re-analysis of the deposited data

How the results depend on the processing

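The labels give no replicate numbers, so no pairing comes from the design. With the library prefix as a replicate block, TDG KD minus siRNA control stayed at -14.8 points of share and 0.00140 of excess, and 2 pairs cannot give a p below 0.5. The 8 planned within-library differences kept their direction under every alternative run on them, but several moved by more than 1.5 times. None passed the adjusted threshold, which says little. With 1 library left out the smallest exact sign-flip p is 0.0625, so none could pass. With 6 libraries 1 test at the smallest p of 0.03125 could not pass alone after adjustment over 8. Most of the 25 added comparisons were run under no alternative. The depth and domain width of each library limit all of them. TDG KD minus siRNA control reversed in share with unconfident sequence counted as enriched (5.33), within EAR (5.19) and without KD 1 (3.95). In excess it reversed as deposited per M reads (-0.00661), as percentile (-3.38), within BHAM (-0.00446), without control 2 (-0.000221) and without KD 2 (-0.00284). siRNA control minus WT reversed in share without the 25% of enriched domains of lowest value (0.115) and without WT 2 (0.799), and in excess as percentile (2.78).

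Leaving out 1 library at a time, the ranges were -33.5 to 3.95 for the share and -0.00284 to 0.00564 for the excess of TDG KD minus siRNA control, and -5.78 to 0.799 and -0.0141 to -0.00445 for siRNA control minus WT. Without a CGI lincRNA minus protein-coding promoters ranged from 6.68 to 8.64, and with a CGI from -4.34 to -1.45. lincRNA promoters with minus without a CGI ranged from 4.08 to 7.33, and the TSS minus its flanks from 2.29 to 5.26. The count called in TDG KD was 239 without KD 1 and 61 without KD 2. In WT it was 217 to 248 and in siRNA control 210 to 226, since 1 library then decides.

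The counts called in both libraries moved in WT to 117 of the 468 regions without the 25% lowest domains and 61 over the whole window. Outside protein-coding genes the count was 112 of 332 regions. In siRNA control 108 of the 332 regions outside protein-coding genes were called. In TDG KD the counts were 35 without the 25% lowest domains and 198 with unconfident sequence as enriched. They were 35 of 366 regions at 10 kb or more and 32 of 332 outside protein-coding genes. The share of all promoters was not computed under these settings, and the causes of the changes were not tested.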

Other observations

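The 764 autosomal lincRNA genes that start within 5 kb of a protein-coding TSS were measured in the same way. The 184 of them without a CGI had a higher enriched share than the 342 more distant ones in 6 of 6 libraries, by 3.64 ± 1.15 percentage points (SD, n = 6; exact two-sided sign-flip permutation p = 0.03125, adjusted 0.0651 over 25 comparisons), for example 46.3% against 41.5% in WT 1. The 580 with a CGI differed from the 126 distant ones by 2.47 ± 6.09, in 4 of 6 libraries (exact p = 0.469).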
